A study of Homo sapiens with 58 samples.

Results

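Chromatin accessibility at 25.8% of the SOX9 level was compared with that at the full level in cranial neural crest cells (CNCCs) made in vitro from H9, an established line of human embryonic stem cells. The comparison holds 14 of the 58 ATAC-seq samples of the series. Of these, 7 were taken after 48 h with 5 nM dTAGV-1 and 7 after 48 h with 0 nM. They were chosen by genotype and concentration as given in their titles. These titles name no time, and 48 h is the treatment time of the study's dose series. All 14 samples are SOX9-tagged: both the treated cells and their controls carry the FKBP12-F36V degradation tag on the endogenous SOX9 protein, and dTAGV-1 brings an E3 ubiquitin ligase to that tag. The SOX9 level at 5 nM is the one in the labels and was not measured by ATAC-seq. The tagged lines are 2 clones, S9CC13 with 4 differentiations (R6, R10, R13 and R14) and S9CC47 with 3 (R5, R6 and R8), and each clone and differentiation gave a 0 nM and a 5 nM sample, so that there were 7 pairs. Untagged wild-type (WT) cells had no 5 nM sample. ATAC-seq counts the cuts that the Tn5 transposase makes in open chromatin, here in 151,457 regulatory elements (REs) counted alike in every sample.

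SOX9 is a transcription factor of the high mobility group family. It binds short DNA sites built on the core ACAAT or ACAAAG, and as a dimer it binds pairs of such cores that point towards each other. In neural crest it acts early in the formation and migration of the cells, and in the crest cells of the face it is needed for cartilage, where with its partners SOX5 and SOX6 it turns on collagen and proteoglycan genes. In people, loss of a single SOX9 copy causes campomelic dysplasia, and loss of distant SOX9 enhancers causes Pierre Robin sequence with a small jaw.

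The 10 REs that fell most and the 10 that rose most were named by a fixed rule (a call past the threshold, a mean of at least 1 CPM (a count scaled to the size of its library) over the 14 samples, the same direction in all 7 pairs), and each RE was assigned to the protein-coding gene with the nearest start site. For REs of the most common width (a single summit extended to either side), the central 200 bases of the first 4 that fell and of the second and the third that rose, at EPHA6 and SORCS1, are printed from the plus strand of hg38 so that the SOX cores inside them can be read. No window is printed for the first that rose, at MYOM2. Capitals mark ACAAT or ACAAAG on either strand.
ARPC1A RE, chr7:99358157-99358356: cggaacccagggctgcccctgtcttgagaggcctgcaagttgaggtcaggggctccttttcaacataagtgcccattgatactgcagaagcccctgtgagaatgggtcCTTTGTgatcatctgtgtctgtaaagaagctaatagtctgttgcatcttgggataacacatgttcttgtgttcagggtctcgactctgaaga
USP54 RE, chr10:73553342-73553541: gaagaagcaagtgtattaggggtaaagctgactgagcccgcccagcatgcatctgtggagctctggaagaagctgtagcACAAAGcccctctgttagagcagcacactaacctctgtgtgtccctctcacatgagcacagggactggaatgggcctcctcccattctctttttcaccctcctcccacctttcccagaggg
AGPAT4 RE, chr6:161319290-161319489: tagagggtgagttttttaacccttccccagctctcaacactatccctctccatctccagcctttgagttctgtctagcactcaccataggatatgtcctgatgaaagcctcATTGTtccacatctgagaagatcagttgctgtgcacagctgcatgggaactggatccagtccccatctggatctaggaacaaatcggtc
BCL2L11 RE, chr2:111155680-111155879: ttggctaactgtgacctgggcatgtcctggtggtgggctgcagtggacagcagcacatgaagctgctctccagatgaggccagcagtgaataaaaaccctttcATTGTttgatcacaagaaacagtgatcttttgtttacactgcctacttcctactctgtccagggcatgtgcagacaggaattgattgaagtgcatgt
EPHA6 RE (higher), chr3:95616515-95616714: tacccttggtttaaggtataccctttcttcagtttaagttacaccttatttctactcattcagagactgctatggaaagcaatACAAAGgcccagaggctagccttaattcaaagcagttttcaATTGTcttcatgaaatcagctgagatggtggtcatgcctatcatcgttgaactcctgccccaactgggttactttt
SORCS1 RE (higher), chr10:106585748-106585947: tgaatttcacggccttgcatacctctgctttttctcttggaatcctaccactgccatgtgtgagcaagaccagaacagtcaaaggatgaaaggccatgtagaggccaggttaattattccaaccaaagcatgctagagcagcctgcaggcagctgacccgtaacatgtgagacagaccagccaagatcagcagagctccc
Each of the 4 windows from REs that fell holds 1 such core, and of the 2 from REs that rose the EPHA6 window holds 2 and the SORCS1 window 0.

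Libraries and markers were checked first. Totals in REs were 45.6 ± 8.84 M counts (M, mega; SD, n = 7) at 0 nM and 50.9 ± 15.6 M (SD, n = 7) at 5 nM, from 35.2 to 75.6 M over the 14 samples. In each of the 42 pairs of samples within a group the counts differed beyond sampling noise, the lowest reduced chi-square being 2.74. The 14 promoter REs of the neural crest genes TFAP2A, TWIST1, NR2F1, PRRX1, ALX4 and MSX1 summed to between 305 and 458 CPM at 0 nM and between 301 and 446 CPM at 5 nM, and 0 of them passed the threshold. The 5 promoter REs of pluripotency genes summed to between 96.3 and 153 CPM at 0 nM and between 84.0 and 131 CPM at 5 nM, and 1 of them, at LIN28A, was lower. Most of that sum came from LIN28A (mean 75.6 CPM at 0 nM) and PRDM14 (29.2 CPM), while POU5F1 had 1.28 CPM. At 0 nM the neuroepithelial promoter REs summed to between 67.6 and 112 CPM and the glial and melanocyte ones to between 61.5 and 94.1 CPM. The muscle and endoderm sums were at most 8.02 and 12.9 CPM. No RE lay at the promoters of NANOG, DCT, MYF5 or FOXA2, and 0 promoter REs of the neuroepithelial, glial and melanocyte, muscle and endoderm markers passed. The part of such cells in the results was not tested.

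**Figure D1:**
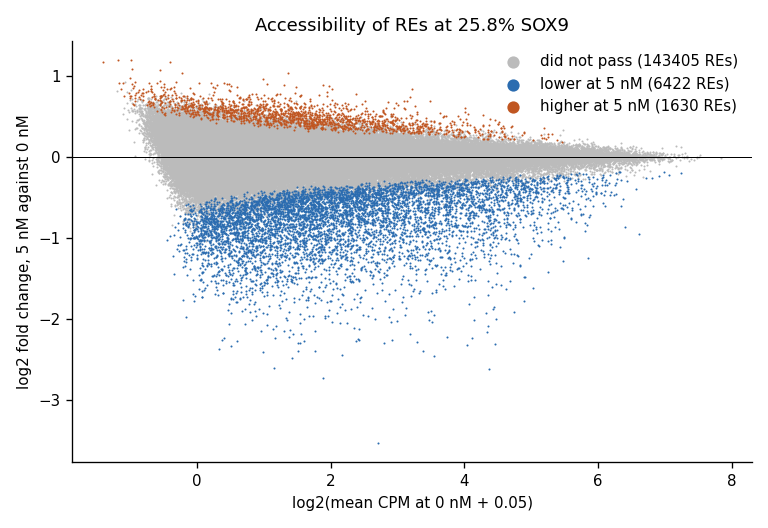
Each point is 1 of 151,457 REs, with the level at 0 nM on the x axis as log2(mean CPM + 0.05) and the edgeR log2 fold change of 5 nM against 0 nM on the y axis. The 6,422 REs that were lower (blue) reach -3.53, while the 1,630 that were higher (orange) reach 1.21.

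Among the REs called at 5 nM, losses of accessibility outnumbered gains and were larger. With edgeR and differentiation batch as covariate, 8,052 REs had an adjusted p-value under 0.05, which is 5.32% of the REs tested: 6,422 were lower (4.24%) and 1,630 were higher (1.08%). The log2 fold change had a median of -0.72 over the lower REs, and 1,571 of them fell by 1 or more, whereas over the higher REs the median was 0.51 and 8 rose by 1 or more. The 5 nM value lay below the 0 nM value in all 7 pairs for 5,742 of the lower REs (89.4%), against 6.30% of all REs. For 1,387 of the higher REs (85.1%) it lay above in all 7 pairs, against 3.69% of all REs. Groups that did not overlap at all were less frequent, with 1,142 lower REs (background 0.772%) and 29 higher REs (background 0.0284%). The threshold used the same 14 samples, so these counts are a description. In simulated counts modelled on these samples, the fit recovered 49% of 1.5-fold and 92% of 2-fold changes. Smaller changes were missed more often, so the ratio of losses to gains holds for called REs only. In a bulk sample, fewer cells with an RE open and less opening per cell cannot be told apart.

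The count of higher REs depended on single replicates more than the count of lower REs did. Without replicate S9CC47_R5 the higher REs numbered 558 and without S9CC47_R8 they numbered 597, against 4,820 and 4,660 lower REs. Without both samples of S9CC47_R6 there were 10,528 lower and 6,810 higher REs. In that fit the batch term equals a block for each replicate, so the model changed along with the samples. When each replicate was given its own block, 12,921 REs passed, 8,697 lower (5.74%) and 4,224 higher (2.79%), and all 8,052 REs were among them.

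The 10 REs that fell most had log2 fold changes from -3.53 to -2.39, and in each of them every 5 nM sample lay below every 0 nM sample. The first was an RE near a start site of ARPC1A, a subunit of the Arp2/3 actin-nucleating complex (chr7:99358007-99358507, overlapping a coding exon, 159 bp from the start site). Its level at 0 nM was 1.81 CPM at the lowest, 6.73 at the median and 11.0 at the highest, and at 5 nM it was 0.178, 0.596 and 0.652 CPM. Its log2 fold change was -3.53 ± 0.21 (SE, edgeR adjusted p = 3.65e-07). The lowest values at 0 nM came from S9CC13 differentiations, and the 7 samples at 5 nM ended close together apart from S9CC13_R13.

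The next RE covers a start site of USP54, of the ubiquitin-specific protease family (chr10:73553192-73553692, in a noncoding exon). Its level went from 1.81, 3.25 and 6.24 CPM (lowest, median and highest of 0 nM) to 0.225, 0.597 and 0.824 CPM at 5 nM, a log2 fold change of -2.73 ± 0.20 (SE, edgeR adjusted p = 1.06e-06). A pair of neighbouring intergenic REs nearest to AGPAT4, which codes for a lysophospholipid acyltransferase, fell together. The stronger of them (chr6:161319140-161319640, 45,079 bp from the start site) had 13.1, 16.3 and 32.5 CPM at 0 nM and 1.75, 2.81 and 7.81 CPM at 5 nM, and its log2 fold change was -2.61 ± 0.17 (SE, edgeR adjusted p = 5.81e-07). The weaker one (chr6:161318397-161318897) fell by 2.44 on the log2 scale, from 4.48 ± 1.33 to 0.803 ± 0.147 CPM (SD, n = 7).

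An intronic RE of BCL2L11, which codes for the pro-apoptotic protein BIM (chr2:111155530-111156030), was the most even of the 10 across replicates at 0 nM. It had 1.73, 2.25 and 2.46 CPM at 0 nM and 0.238, 0.331 and 0.546 CPM at 5 nM, and its log2 fold change was -2.60 ± 0.16 (SE, edgeR adjusted p = 5.22e-07). An RE 9,675 bp from the start of SOX10, the SOX factor of crest, glia and pigment cells, lies in an annotated untranslated region of the neighbouring gene POLR2F (chr22:37967856-37968356). It had 3.57, 15.2 and 17.1 CPM at 0 nM against 0.803, 1.97 and 3.12 CPM at 5 nM, and its log2 fold change was -2.46 ± 0.13 (SE, edgeR adjusted p = 2.25e-07). The other 4 were assigned to TAF1B, SMARCC1, PTPRT and KCTD3, with start sites 20,154, 24,096, 27,503 and 206,839 bp away. They fell by 2.48 to 2.39 on the log2 scale. TAF1B is a subunit of the RNA polymerase I initiation factor, SMARCC1 one of the BAF remodelling complex, and PTPRT a receptor tyrosine phosphatase.

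**Figure D2:**
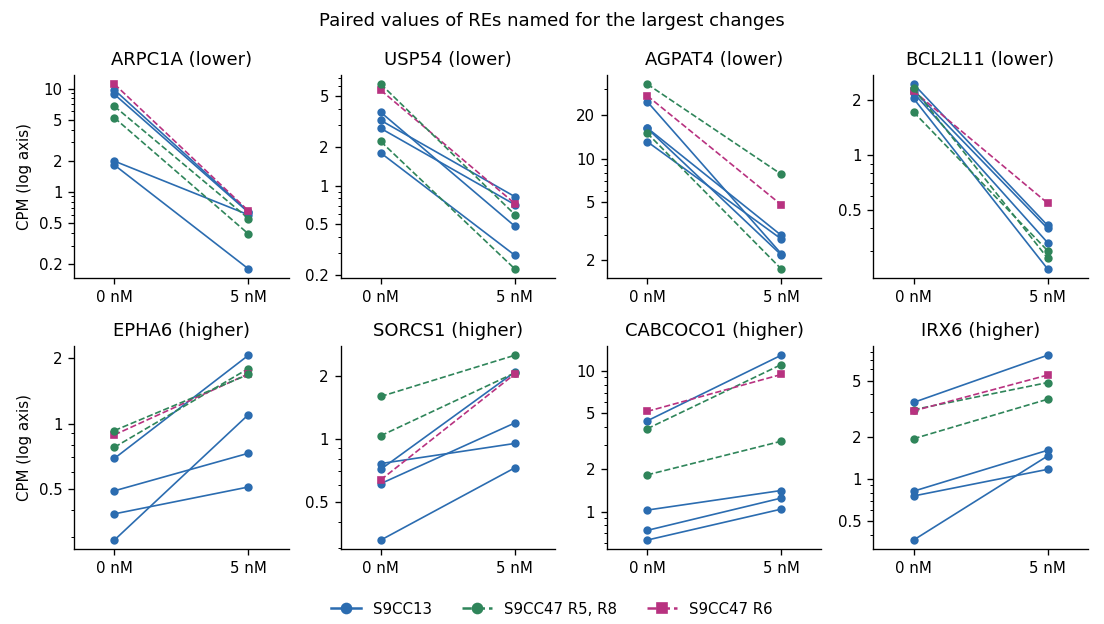
CPM (log axis, its range differs between panels) of 8 REs at 0 and 5 nM, 1 line per replicate, with solid lines for clone S9CC13, dashed lines for S9CC47 and squares for replicate S9CC47_R6. All 7 lines fall in the upper row and rise in the lower row, and only in the upper row do the groups not overlap.

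The 10 REs that rose most changed less, with log2 fold changes between 0.91 and 1.18, and the groups overlapped in each of them although every pair rose. An intergenic RE assigned to CABCOCO1 (chr10:61587011-61587790) lies 75,139 bp from the start site. It had 0.628, 1.83 and 5.16 CPM at 0 nM (lowest, median and highest) and 1.04, 3.17 and 12.9 CPM at 5 nM. Its log2 fold change was 1.04 ± 0.14 (SE, edgeR adjusted p = 2.48e-04). The low values at either concentration came from R10, R13 and R14 of clone S9CC13, whose R6 replicate had the highest value at 5 nM. The spread between replicates was larger than the change within a pair.

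An intergenic RE assigned to IRX6, an Iroquois homeobox factor (chr16:55249878-55250378), lies 73,825 bp from the start site. It had 0.368, 1.93 and 3.499 CPM at 0 nM and 1.17, 3.69 and 7.58 CPM at 5 nM. Its log2 fold change was 0.97 ± 0.14 (SE, edgeR adjusted p = 3.83e-04). The RE assigned to EPHA6, an ephrin receptor, lies 1,197,716 bp from its start site (chr3:95616365-95616865). It went from 0.289, 0.690 and 0.928 CPM to 0.509, 1.69 and 2.07 CPM, with a log2 fold change of 1.09 ± 0.17 (SE, edgeR adjusted p = 1.06e-03). The others were assigned to MYOM2, a sarcomere protein (1.18), SORCS1, a sorting receptor (1.05), TENM3, a teneurin (0.93), KCNA4, a potassium channel (0.92), ETV1, an ETS factor (0.92), IRX1, another Iroquois factor (0.92), and LSM11, of the U7 small nuclear ribonucleoprotein (0.91), the values being log2 fold changes. The nearest of the 10 to a protein-coding start site lay 20,809 bp away, and 0 were promoter REs, against 3 of the 10 that fell most.

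In where they lay, both sets stood away from promoters. Promoter REs, within 1,000 bp of a GENCODE start site, were 13.7% of the lower and 6.87% of the higher REs, against 24.7% of all REs. Put the other way, 2.35% of the 37,377 promoter REs were lower and 0.300% higher, against 4.86% and 1.33% of the other REs. The median distance to a protein-coding start site was 28,529 bp for lower REs, 63,308 bp for higher REs and 18,356 bp for all. Introns held 53.6% of lower and 54.4% of higher REs, against 45.5% of all REs. Of all REs over 100 kb from a protein-coding start site, 4.97% were lower and 2.04% higher. The lower REs started from 4.00 CPM at 0 nM at the median and the higher REs from 2.71 CPM, against 2.44 CPM for all REs. The share called lower rose from 1.06% in the fifth of REs with the fewest CPM at 0 nM to 5.91% in the fifth with the most, and the depth behind a value rises along that order too.

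SOX cores were more frequent in the lower REs. Letters were searched on both strands in the 123,778 REs of that width, of which 5,135 (4.15%) were lower and 1,320 (1.07%) higher. The core ACAAAG was in 55.2% of the lower REs, 33.3% of the higher and 33.3% of all, and ACAAT in 68.9%, 61.7% and 52.4%. The share that fell was 2.71% of REs with 0 ACAAT cores, 4.71% with 1, 6.02% with 2, 7.73% with 3 and 7.26% with 4 or more. Among the other motifs, the homeodomain letters TAATTA were in 22.4% of higher REs, 13.3% of lower and 13.6% of all. The E-box CAGATG was in 48.4% of lower and 48.3% of higher REs, against 42.1% of all. The AP-1 site TGANTCA was in 17.1%, 14.8% and 15.5% of lower, higher and all REs, TEAD GGAATG in 33.3%, 34.8% and 30.9%, and NR2F AGGTCA in 37.7%, 40.8% and 33.9%. The TFAP2 site GCCNNNGGC was in 19.7%, 21.2% and 23.1%, RUNX TGTGGT in 31.5%, 32.0% and 29.0%, and a CTCF string in 0.565%, 0% and 2.63%. Base composition differed between the sets, with a median GC content of 46.5% in lower, 43.5% in higher and 48.1% in all REs, and its part in the motif shares was not tested.

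The arrangement of the cores went with larger differences than their number. When ACAAT was followed by ATTGT, so that the cores face each other, 6 bases apart, 52 of 123 REs were lower (42.3%), against 4.15% of all REs of this width. At 5 bases 27 of 102 were lower (26.5%) and at 7 bases 14 of 62 (22.6%), and 0 of the 287 REs with 1 of these 3 gaps were higher. With the cores facing apart at the same gaps, 16 of 213 REs were lower (7.51%). Facing cores at the other gaps from 0 to 12 bases were lower in 35 of 568 REs (6.16%). These pairs also count as ACAAT cores, and none of the 10 REs that fell most holds one by these exact letters.

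**Figure D3:**
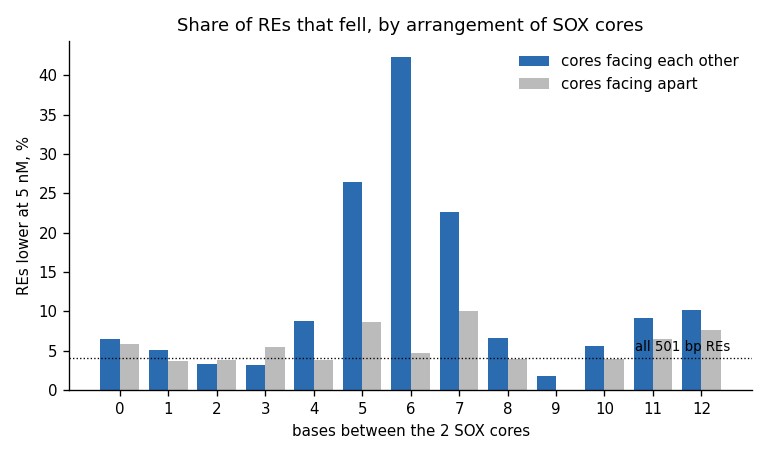
Share of REs that were lower at 5 nM (y axis, %) by the number of bases between the cores ACAAT and ATTGT (x axis), for cores facing each other (blue) and facing apart (grey). The blue bars at 5, 6 and 7 bases reach 26.5, 42.3 and 22.6%, and the dotted line marks the 4.15% of all REs of the same width.

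The REs with facing cores 5 to 7 bases apart that fell most were picked after their values were seen. Their 100 bases around the pair are printed from the plus strand of hg38 to show the arrangement, with capitals on the pair alone.
VPS37B RE, gap 7, chr12:122898974-122899073: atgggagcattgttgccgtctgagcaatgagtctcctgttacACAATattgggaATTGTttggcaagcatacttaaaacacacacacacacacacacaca
RALGAPA1 RE, gap 6, chr14:35558726-35558825: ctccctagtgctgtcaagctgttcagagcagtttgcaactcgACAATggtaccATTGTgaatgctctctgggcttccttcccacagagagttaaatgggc
DNAH14 RE, gap 5, chr1:224879702-224879801: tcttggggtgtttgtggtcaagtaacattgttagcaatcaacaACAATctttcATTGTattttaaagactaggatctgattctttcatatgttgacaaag
OR6B3 RE, gap 5, chr2:240051940-240052039: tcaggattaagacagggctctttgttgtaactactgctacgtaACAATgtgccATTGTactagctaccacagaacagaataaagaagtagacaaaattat
The OR6B3 RE had 3.35, 9.39 and 12.95 CPM at 0 nM (lowest, median and highest) and 0.922, 2.25 and 2.94 CPM at 5 nM, and its log2 fold change was -1.88 ± 0.13 (SE, edgeR adjusted p = 7.46e-07). The RALGAPA1 RE, in an intron of this subunit of a Ral GTPase-activating complex, had 1.86, 2.63 and 4.34 CPM at 0 nM and 0.275, 0.800 and 1.41 CPM at 5 nM, and fell by 1.94 ± 0.25 on the log2 scale (SE, edgeR adjusted p = 1.72e-04). The groups did not overlap in any of the 4 REs. The VPS37B RE fell by 2.23 and the DNAH14 RE by 1.90 on the log2 scale.

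The 5 nM group was then compared with its neighbours in the dose series. Against 1.6 nM, which leaves 51.7% of SOX9, 2,677 REs passed the threshold at 5 nM with edgeR (1.77%), 2,588 of them lower (1.71%) and 89 higher. Against 5 nM, 1,453 REs passed at 16 nM (0.959%), where 8.14% of SOX9 is left, 1,316 of them lower (0.869%) and 137 higher. With the replicate as block 5,032 REs passed against 1.6 nM, 4,299 lower and 733 higher. From 5 to 16 nM that fit gave 3,481, of which 2,519 were lower and 962 higher. The higher counts thus moved more with the fit, in proportion, than the lower counts did. The named REs were chosen on the same 5 nM samples, so their differences from neighbouring doses are a description. Each of the 10 that fell most was lower at 5 nM than at 1.6 nM, with log2 differences from -2.20 to -1.45. From 5 to 16 nM the lowest log2 differences among them were those of the stronger AGPAT4 RE (-1.94 ± 0.29, SE) and the SOX10 RE (-1.81). The ARPC1A RE was at 0.469 CPM at 16 nM and 0.355 CPM at 500 nM, against 0.519 CPM at 5 nM, and its log2 difference between 16 and 5 nM was -0.12. Of the 10 that rose most, those of CABCOCO1 and ETV1 had log2 differences of 0.62 and 0.71 between 1.6 and 5 nM, and that of KCNA4 0.66 between 5 and 16 nM.

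To follow both sets through the other doses without the 0 nM samples that chose them, each sample was set against the 0.5 nM sample of its replicate (77.9% SOX9), as the median log2 difference over the set. For the lower REs this median was -0.16 ± 0.09 (SD, n = 7) at 1.6 nM, -1.01 ± 0.22 at 16 nM and -1.26 ± 0.18 at 500 nM, and it was below 0 in every replicate. At 5 nM, whose samples chose the set, it was -0.63 ± 0.07. For the higher REs it was 0.07 ± 0.08 at 1.6 nM, where 1 replicate was below 0, then 0.34 ± 0.04 at 5 nM, 0.53 ± 0.12 at 16 nM and 0.53 ± 0.11 at 500 nM. Set directly against the 16 nM sample, the 500 nM sample had a median log2 difference over the lower REs of -0.44 to -0.03, below 0 in every replicate, although against the 0.5 nM sample S9CC47_R5 went from -1.16 at 16 nM to -1.11 at 500 nM. Over the higher REs the direct difference was -0.13 to 0.24 with a mean of 0.01. Over all REs the medians were between -0.06 and 0.08.

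**Figure D4:**
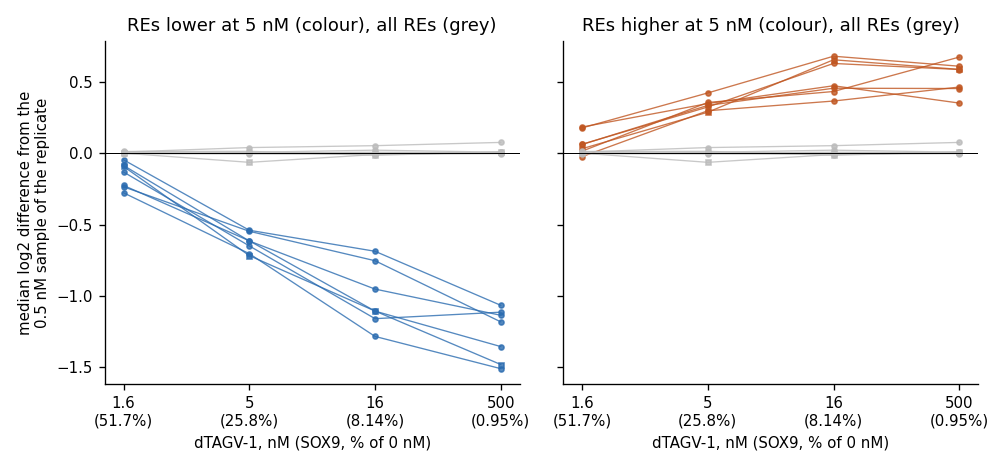
Median log2 difference from the 0.5 nM sample of the same replicate (y axis) by dTAGV-1 concentration and SOX9 level (x axis), over the REs that were lower (left) or higher (right) at 5 nM, 1 line per replicate, with squares for S9CC47_R6 and grey lines for all REs. At 500 nM the lower REs lie between -1.51 and -1.07, below their 16 nM value in 6 of 7 replicates (S9CC47_R5 goes from -1.16 to -1.11), and the higher REs lie between 0.35 and 0.67.

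The time course with 500 nM dTAGV-1 shares no sample with the 5 nM comparison. It holds 2 differentiations per genotype, R4 and R5, so it was read without a test. R5 is also a differentiation of the 5 nM comparison, so the time course is not fully separate from it. In both genotypes the vehicle samples are listed at 24 h and served for both times. The 3 h values therefore have no vehicle sample of their own time. After 3 h in tagged cells, 6,193 of the 6,422 lower REs (96.4%) were below vehicle in both differentiations, against 23.6% of all REs, and the median log2 change was -1.39 in R4 and -1.17 in R5. The higher REs had reached a median of 0.21 and 0.22 at 3 h, with all REs at 0.08 and 0.06, and 1,065 of them (65.3%) were above vehicle in both, against 42.7% of all REs. After 24 h the medians were -1.75 and -1.40 for the lower and 0.69 and 0.37 for the higher REs, and 1,461 of the higher REs (89.6%) were above vehicle in both, against 41.5% of all. All 10 named lower REs were below vehicle at 3 h in both differentiations, from -4.56 to -0.97, and of the 10 named higher REs 6 were above vehicle in both at 3 h and all 10 at 24 h.

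Over the sets, WT cells showed neither shift at 3 h with 500 nM. The lower REs had medians of 0.00 and 0.02, and 22.8% of them were below vehicle in both differentiations, against 23.1% of all REs. The higher REs had medians of 0.01 and 0.02. Single named higher REs departed from this. At 3 h the KCNA4 RE changed by 0.60 and 1.33 in WT and by 0.44 and 0.40 in tagged cells. The SORCS1 RE changed by 0.18 and 0.51 in WT and by 0.45 and 0.46 in tagged cells. Those of CABCOCO1, IRX6, TENM3 and LSM11, which rose in both tagged differentiations, had WT changes of opposite signs. After 48 h in WT cells the lower REs had medians of 0.19 and 0.09, and 3,773 of them (58.8%) were above 0 nM in both differentiations, against 26.0% of all REs. That displacement was opposite in sign to the one in tagged cells. The ARPC1A RE had WT changes of 1.05 and 0.50 at 48 h, and the BCL2L11 RE 1.12 and 0.12. The genotypes were not compared at 5 nM, for which there were no WT samples.

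The RE over the SOX9 start site (chr17:72119993-72121187) was open in all samples and did not pass the threshold. It had 37.7, 43.7 and 52.4 CPM at 0 nM and 38.4, 46.6 and 53.6 CPM at 5 nM, and its log2 fold change was 0.06 ± 0.05 (SE, edgeR adjusted p = 0.771). Of the 69 REs assigned to SOX9, 5 were higher (7.25%, against 1.08% of all REs) and 0 lower (against 4.24% of all REs). The largest rise was at an RE 253,432 bp from the start site (chr17:71867088-71867588). It went from 16.5 to 24.0 CPM, with a log2 fold change of 0.54 ± 0.07 (SE, edgeR adjusted p = 1.21e-04). On the other side of the gene, SLC39A11, a zinc transporter, had 15 lower REs of 52 (28.8%, against 4.24% of all REs), the most of any gene. They lay between chr17:72560176 and 73119544. Their log2 fold changes ran from -2.26 to -0.39. These were singled out after their values were seen, as were the genes next in number, MYCN with 13 of 65, RAD51B with 12 of 63, TLE3, a co-repressor, with 11 of 70, and CDH11, a crest cadherin, with 11 lower and 2 higher. In all, 3,783 of 17,651 genes had a lower RE and 1,260 a higher RE, and 644 had both.

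Among the SOX family, 32 of 412 REs were lower (7.77%, against 4.24% of all REs) and 7 higher (1.70%, against 1.08%), and the median log2 change over the list was 0.00 against 0.02 over all REs. Lower REs lay at 8 of the 12 genes. SOX5 and SOX6, the partners of SOX9 in cartilage, had 9 and 7 lower REs. An intronic RE of SOX5 (chr12:23771165-23771665) fell from 8.88 to 2.98 CPM, a log2 fold change of -1.52 ± 0.14 (SE, edgeR adjusted p = 6.47e-06), and one of SOX6 (chr11:16001383-16002368) from 15.7 to 6.37 CPM, by 1.22 on the log2 scale. For SOX13, which belongs with SOX5 and SOX6, an intronic RE fell by 1.04 on the log2 scale, from 18.0 to 8.77 CPM. Of SOX8 and SOX10, the closest relatives of SOX9, SOX10 had 2 lower REs of 9 and SOX8 0 of 5, a difference that was not tested. The SOX8 RE with the smallest p-value had a log2 change of -0.27 ± 0.13 (SE, edgeR adjusted p = 0.393).

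Cartilage matrix genes had 18 lower REs of 193 (9.33%, against 4.24% of all REs) and 0 higher (1.08% of all REs), with lower REs at 10 of 20 genes. At COL2A1, the type II collagen of cartilage, 3 of 8 REs were lower, with log2 changes from -0.50 to -0.25, the RE over a start site (chr12:47988324-47988824) going from 38.3 to 28.2 CPM. COL9A2, a chain of type IX collagen, lost accessibility at both of its REs (-0.57 and -0.56). Among the REs with the smallest p-value of each gene, that of ACAN, which codes for aggrecan, had the lowest log2 change (chr15:88776571-88777071, 26,365 bp from a start site). It went from 1.25 to 0.252 CPM, a log2 fold change of -2.26 ± 0.21 (SE, edgeR adjusted p = 7.27e-06). SNORC, a chondrocyte membrane proteoglycan (-1.25), CSPG4, also named NG2 (-1.14), and CNMD, chondromodulin (-1.06), each had a lower RE as well. COL11A1, with 26 REs, and COL27A1, with 34, had none, and the smallest p-values there went with log2 changes of 0.20 and 0.38 that did not pass. The COL27A1 RE passed with the replicate block (edgeR adjusted p = 0.0056) and without the 5 nM sample of S9CC47_R6 (edgeR adjusted p = 0.00868), and the COL11A1 RE passed without that sample (edgeR adjusted p = 0.0482).

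Of the REs of neural crest transcription factors, 38 of 870 were lower (4.37%, against 4.24% of all REs) and 10 higher (1.15%, against 1.08%). The higher share depended on the fit: it was 5.06% with the replicate block (2.79% of all REs) and 4.83% without the 5 nM sample of S9CC47_R6 (2.31% of all REs). An intronic RE of ETS1 (chr11:128552879-128553379) fell from 13.3 to 2.73 CPM, a log2 fold change of -2.22 ± 0.13 (SE, edgeR adjusted p = 2.31e-07). TFAP2B (-1.44), NR2F2 (-1.32) and ZEB2 (-1.09) each had a lower RE far from their start sites. MSX1, a homeobox factor of the jaw, had 3 higher REs of 36 and 0 lower, the first (chr4:4704103-4704603) going from 8.79 to 14.3 CPM, a log2 fold change of 0.69 ± 0.09 (SE, edgeR adjusted p = 1.20e-04). TWIST1, PRRX1 and ALX1 had 0 called REs of 10, 18 and 11.

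In the BMP and TGF-beta pathway 25 of 694 REs were lower (3.60%, against 4.24% of all REs) and 14 higher (2.02%, against 1.08%). Among ligands, TGFB2 had 2 lower REs (smallest p at -1.24, from 9.27 to 3.93 CPM) and BMP7 had 4 lower and 1 higher, whereas BMP4 had 3 higher of 29 and TGFB3 2 higher of 5, all with 0 lower. The BMP4 RE with the smallest p-value (chr14:53935017-53935799) went from 26.2 to 33.8 CPM, a log2 fold change of 0.39 ± 0.06 (SE, edgeR adjusted p = 0.00132). The receptor genes BMPR1A (-1.15) and BMPR1B (-1.16) each had REs that fell. Of the SMAD mediators, SMAD5 had 3 lower of 9 and SMAD2 had 2 higher of 24. The ID genes, targets of BMP signalling, had 1 lower RE at ID3 and 3 higher at ID2 and ID4.

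Of the glial and melanocyte genes, 17 of 266 REs were lower (6.39%, against 4.24% of all REs) and 7 higher (2.63%, against 1.08%), with lower REs at 10 of 16 genes. ERBB3, the neuregulin receptor of crest and Schwann cells, had 1 lower RE of 3, 1,177 bp from its start site (-1.37). An RE 49,483 bp from EDNRB, the endothelin receptor of pigment and enteric progenitors, fell by 2.14 on the log2 scale, from 2.41 to 0.539 CPM. KIT had 2 higher REs of 13 and CDH19 1 of 23.

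For the Hedgehog and chondroprogenitor factors, 36 of 462 REs were lower (7.79%, against 4.24% of all REs) and 0 higher (1.08% of all REs). GLI2 and GLI3, the transcription factors at the end of the Hedgehog pathway, had 7 of 69 and 5 of 62 lower REs, with smallest-p values of -0.89 and -1.68. The receptor genes FGFR2 (4 of 39) and FGFR1 (3 of 26) and the factors RUNX1 (4 of 48) and RUNX3 (3 of 37) had lower REs, whereas IHH and PTHLH had 0 of 2 and 0 of 14. AP-1 and YAP targets had 15 lower of 244 (6.15%, against 4.24% of all REs) and 2 higher (0.820%, against 1.08%), with 4 of 27 at WWTR1, the TAZ co-activator, 2 of 40 at TEAD1 and 0 of 18 at FOS. Osteoblast genes had 3 lower REs of 142 (2.11%, against 4.24% of all REs), all at RUNX2, the master factor of bone, and 1 higher (0.704%, against 1.08%), also at RUNX2, while SP7 and COL1A1 had none.

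The counts of higher REs in these lists moved with the fit more, in proportion, than the counts of lower REs did. Without the 5 nM sample of S9CC47_R6, when 2.31% of all REs were higher and 4.85% lower, the higher count went from 7 to 20 in the SOX family, from 0 to 5 in the cartilage list, from 10 to 42 in the neural crest list and from 14 to 30 in the BMP and TGF-beta list. It went from 7 to 13 in the glial and melanocyte list, from 1 to 2 in the osteoblast list, from 2 to 6 in the AP-1 and YAP list and from 0 to 4 in the Hedgehog list. The lower counts, in the same order of lists, were then 35, 26, 44, 28, 22, 4, 18 and 39. With the replicate block, when 2.79% of all REs were higher and 5.74% lower, the higher counts in that order were 21, 4, 44, 28, 14, 3, 7 and 4 and the lower counts 37, 25, 58, 38, 22, 5, 22 and 54.

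The 5 nM sample of replicate S9CC47_R6 stood apart from the other libraries in how its counts were spread over REs. Promoter REs held 56.9% of its counts, against 50.0% in the 0 nM sample of the replicate and 48.4% to 53.6% in its samples at the other doses. In the other 6 pairs the share differed by between -1.24 and 0.93 percentage points from 0 to 5 nM, and in this pair by 6.85. Over the 7 pairs the mean difference was 0.593 ± 2.84 points (SD, n = 7; exact two-sided sign-flip permutation test, p = 0.906, the smallest p that 7 pairs allow being 0.0156), and -0.450 points without this pair (p = 0.219, n = 6, same exact test). Differentiations R10, R13 and R14 held 54.5% to 58.5% of counts in promoter REs at either concentration and R5, R6 and R8 the rest, from 47.2% to 51.3% apart from this sample.

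**Figure D5:**
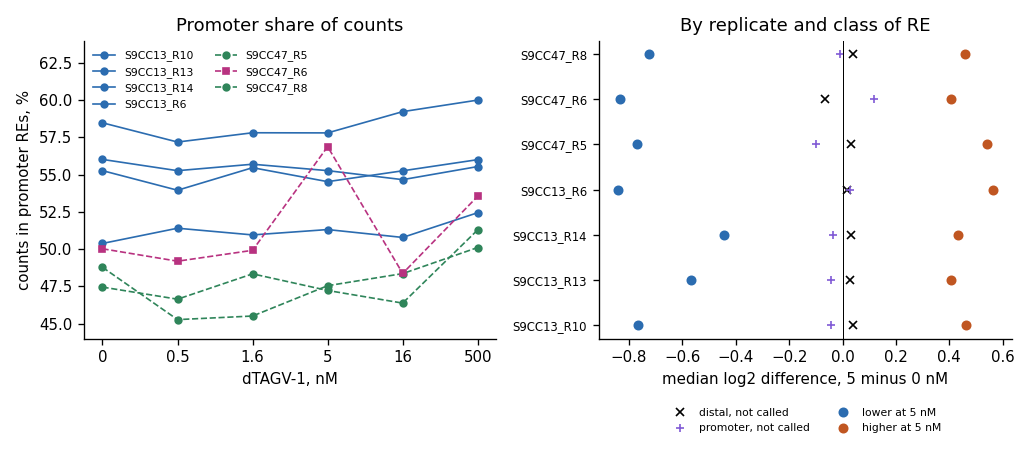
Left, share of counts in promoter REs (y axis, %, not starting at 0) by dTAGV-1 concentration for each replicate, with squares for S9CC47_R6, which stands at 56.9% at 5 nM. Right, median log2 difference between the 5 and 0 nM samples of each replicate for 4 classes of RE, where the REs that did not pass are displaced from 0 in S9CC47_R6 by -0.07 (distal) and 0.12 (promoter).

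In this pair the REs outside the calls shifted too. Distal REs that did not pass had a median log2 difference of -0.07 in S9CC47_R6 and between 0.02 and 0.04 in the other pairs, and promoter REs that did not pass had 0.12 against between -0.10 and 0.03. The called sets were chosen with this pair among the 7, and in it they had a median of -0.83 over the lower REs, where the other pairs had -0.84 to -0.44, and of 0.41 over the higher REs, where they had 0.41 to 0.56. Without this sample 10,841 REs passed, 7,347 lower (4.85%) and 3,494 higher (2.31%). Of the 6,422 lower REs 6,284 still passed, as did 1,555 of the 1,630 higher, none changed sign, and the medians were -0.71 and 0.52. The 3,002 REs that passed only then were 1,063 lower and 1,939 higher, and 15.5% of them were promoter REs. With the promoter share of each sample as a covariate 10,031 REs passed, 7,264 lower and 2,767 higher. Lower REs made up 79.8% of the calls with all samples, 67.8% without this sample and 67.3% with the replicate block, and with neither batch nor block 2,145 REs passed, 2,123 lower and 22 higher. For the 10 lower REs named above the log2 fold change without this sample ran from -3.48 to -2.35, and for the 10 higher REs from 0.81 to 1.37, all past the threshold.

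The clones were compared in an interaction of clone and treatment with the replicate as block. With edgeR 0 of 151,457 REs passed (0%) and 5,521 had an unadjusted p-value under 0.05. DESeq2 also called 0, and there 2,108 had an unadjusted p-value under 0.05. The median over the lower REs was -0.84, -0.77, -0.57 and -0.44 in the replicates R6, R10, R13 and R14 of S9CC13 and -0.77, -0.83 and -0.72 in R5, R6 and R8 of S9CC47. The 10 lower and 10 higher REs named above moved one way in both clones because the rule that named them required it. Clone and differentiation overlap in part. Among the 14 samples R10, R13 and R14 came from S9CC13 alone and R5 and R8 from S9CC47 alone.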

How the data were processed

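ATAC-seq counts of 14 SOX9-tagged samples (5 and 0 nM dTAGV-1, 48 h) were analysed, with the other 44 samples used for values set beside them. Per the study's methods, the authors trimmed reads, aligned them to hg38 with Bowtie2 2.4.1, removed duplicates, mitochondrial and poorly mapped reads with SAMtools 1.10, shifted the cut sites, merged MACS2 2.2.7.1 summits that recurred across differentiations into 1 set of REs, and deposited whole-number read counts per RE and sample, with no normalization and no pooling. REs that open in too few differentiations are not in that set, and duplicates were removed before counting.

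Counts were fitted with edgeR 4.0.16 (R 4.3.3; TMM scaling, trended dispersion, quasi-likelihood F test, all 151,457 REs, no filter, Benjamini-Hochberg adjustment, threshold 0.05), with a term for the differentiation batch. The study used DESeq2 with that covariate. Alternatives were DESeq2 1.42.0, limma 3.58.1 (voom, cyclic loess), a replicate block, other scalings and filters, and leaving out samples. CPM values are TMM-scaled, and log2 values per sample add 0.05 CPM. Standard errors were derived from the F statistic. The scripts were tested on simulated data with known changes. At these depths (35.2 to 75.6 M counts, M for mega) the spread between replicates exceeded counting error.

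Groups came from the titles. In S9CC13_R14 the concentrations in the labels are exchanged, against the titles, between 0 and 0.5 nM, and the titles were used. Over the lower REs its 0 nM sample had a median log2 difference from its 0.5 nM sample of -0.11. In the other replicates this difference was 0.01 to 0.23. Over the higher REs it was -0.13, and -0.18 to -0.06 in the others. The pair of S9CC13_R14 and its 0.5 nM reference rest on that choice, which was not tested. In 3 time-course columns the clone name differs from the titles, and they were assigned by group. Samples pair by clone and differentiation, as their titles show: same-replicate samples at 0 and 5 nM deviated together from their group means (correlation from 0.25 to 0.89, mean 0.66, over 127,530 REs with at least 1 CPM; 0.25 in S9CC47_R6), against a mean of -0.11 for other combinations. The batch term equals the replicate block except in R6, where both clones share a batch.

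Genes came from GENCODE release 44 and sequences from hg38. Coordinates count from 1. The named REs are the 10 lowest and 10 highest log2 fold changes under the rule given above, the RE over the SOX9 start site, and for each list gene the RE with the smallest p. The members, lists and rules were chosen with earlier results of these data known.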

Additional observations from a re-analysis of the deposited data

Results flagged for a closer look

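In groups of 7 samples, a value was singled out when its gap to the nearest other value passed Dixon's 95% critical value as a share of the range. Of 56 groups of values checked, 5 gave such a value (8.93%), and chance gives about 1 in 20 for independent groups. The low distal enrichment of the S9CC47_R6 sample at 5 nM was known beforehand, and the groups overlap in samples. The share flagged is therefore a description. The difference in promoter share between 5 and 0 nM was 6.85 percentage points in S9CC47_R6, at a gap of 0.732 of the range. The median log2 change of distal REs that were not called was -0.0659 in the same replicate, at a gap of 0.783. The 0 nM sample of S9CC47_R8 held 64.8 M counts (M, mega), the most of its group, at a gap of 0.698. In S9CC13_R13 the 5 nM level of the ARPC1A RE was -2.13 as log2(CPM + 0.05), at a gap of 0.583, and that of the VPS37B RE was -2.57, at a gap of 0.646.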

How the results depend on the processing

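The count of 8,052 REs at 5 nM was 12,921 with the replicate block, 2,145 with no replicate block and no batch term, and 17,440 with the replicate block without the 5 nM sample of S9CC47_R6, an alternative chosen after seeing the data. Leaving out each replicate pair gave from 5,257 (without S9CC47_R8) to 17,338 (without S9CC47_R6). Without S9CC47_R6 the batch term equals the replicate block, so the model changed as well. DESeq2 gave 8,602, limma-voom 8,077, total counts 7,632 and promoter-RE scaling 7,089, and all REs passed the filter. Against 1.6 nM the 2,677 REs became 5,032 with the replicate block and 255 with no batch term. From 5 to 16 nM the 1,453 REs became 2,195 with DESeq2, 3,481 with the replicate block and 115 with no batch term. The causes were not tested. The mean promoter share difference of 0.593 points was 0.640 with a limit of 500 bp. It ran from -0.450 to 0.898 when pairs were left out, and it missed the threshold throughout. The interaction gave 0 REs in every alternative run, and batch plus clone is the same fit as the replicate block there. For the named REs, 390 values kept direction and call, and 10 higher values missed the threshold, 9 with no batch term and that of MYOM2 without S9CC47_R8 as well. The depth limits REs of low CPM most.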
